A study of Mus musculus with 10 samples.

Results

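The interleukin-6 family is described here by 10 genes: the ligand genes Il6, Osm, Lif and Clcf1, the receptor subunit genes Il6ra, Osmr, Lifr and Il6st, and Stat3 and Socs3 downstream of them. They were taken by name from the 51789 genes of the count table, with no cutoff on a measured value, and all 10 had a row and passed the filter on low counts that left 15232 genes for testing. RNA came from cardiomyocytes isolated from the heart on day 4 after myocardial infarction (MI), an occlusion of the left coronary artery by suture. The groups were NLC-MI, non-transgenic littermate control mice, and TgGRK5-MI, mice with a transgene that overexpresses GRK5 (G protein-coupled receptor kinase 5) in cardiomyocytes, with 5 libraries each. Both groups had undergone MI, so no library shows the family without injury. Each library is labelled as cardiomyocytes of 1 mouse. The study used young adult mice of both sexes, but the labels give neither sex nor age for a library, and the promoter of the transgene is not given in the sources used here.

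Interleukin-6 type cytokines share gp130, the signalling receptor subunit that Il6st encodes. Interleukin-6 first binds its own receptor subunit (Il6ra), whereas leukemia inhibitory factor (Lif) and oncostatin M (Osm) bring gp130 together with the LIF receptor (Lifr) or the oncostatin M receptor (Osmr). Mouse oncostatin M acts mainly through Osmr. The bound receptors activate JAK kinases, which phosphorylate the transcription factor STAT3, and STAT3 in turn induces Socs3, an inhibitor that binds gp130 and the JAK kinases and so limits the signal. In the heart the gp130 pathway is known for cardiomyocyte survival and hypertrophy, and oncostatin M for the dedifferentiation of cardiomyocytes after injury.

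Libraries held from 7968779 to 23381527 counts, and 3 counts, the least the depth was taken to show, lay between 0.121 and 0.392 CPM, counts per 1000000 after scaling with TMM factors. Grk5 itself lay between 46.5 and 73 CPM in NLC-MI and between 552 and 1698 CPM in TgGRK5-MI, so every library matched its label. The 8 cardiomyocyte markers summed to between 50753 and 130773 CPM per library, but markers of other cells were present in every library. The 8 fibroblast markers summed to between 4026 and 24731 CPM, the 10 macrophage and monocyte markers to between 725 and 2578 CPM and the 8 endothelial markers to between 747 and 1541 CPM. The 8 neutrophil markers summed to between 10.1 and 35 CPM, with Ly6g and Camp at no more than 3 counts in any library, and the 9 lymphocyte markers to between 2.22 and 6.49 CPM. For none of these 6 sums did the groups differ beyond the spread between libraries (two-sided exact permutation tests of the log2 sum, p from 0.278 to 0.944). The largest difference was that of the macrophage and monocyte sum, 0.44 higher in TgGRK5-MI on the log2 scale, and leaving out single libraries moved it from 0.27 to 0.68. In bulk RNA fewer cells of a type and less RNA per cell cannot be told apart, and this holds for all levels below.

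Promoters of the members were searched for the motifs of transcription factors known to act on this pathway. RefSeq promoter windows on GRCm38.p6 were found for 8 of the 10 genes, not for Osm and Clcf1, and their 250 bases before the start were searched on both strands for a STAT motif (TTCNNNGAA), an AP-1 motif (TGANTCA) and the NF-kappaB motif. The windows of Socs3 (chr11:117969367-117969616, reverse strand) and Il6 (chr5:30012864-30013113, forward strand) are shown because Socs3 is the textbook STAT3 target and Il6 a textbook NF-kappaB target, with the matches in capitals.
Socs3: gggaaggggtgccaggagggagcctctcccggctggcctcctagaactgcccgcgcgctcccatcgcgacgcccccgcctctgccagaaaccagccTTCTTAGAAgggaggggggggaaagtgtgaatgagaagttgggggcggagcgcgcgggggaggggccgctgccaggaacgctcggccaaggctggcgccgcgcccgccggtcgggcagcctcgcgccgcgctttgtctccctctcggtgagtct
Il6: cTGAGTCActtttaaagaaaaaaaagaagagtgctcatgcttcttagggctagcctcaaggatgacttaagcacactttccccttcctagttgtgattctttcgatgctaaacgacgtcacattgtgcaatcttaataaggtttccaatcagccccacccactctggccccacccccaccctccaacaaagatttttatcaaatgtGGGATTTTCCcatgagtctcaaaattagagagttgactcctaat
The Socs3 window holds 1 STAT match, from 154 to 146 bases before the RefSeq start. This window lies inside the Socs3 gene as GENCODE draws it (chromosome 11 from 117966079 to 117970047), whose start lies further upstream. The Il6 window holds 1 AP-1 match, from 249 to 243 bases before the start, and 1 NF-kappaB match, from 44 to 35 bases before it. Among all 32851 windows of this length 7.02% hold the STAT motif, 6.75% the AP-1 motif and 3.9% the NF-kappaB motif. Of the other 6 genes with a window, Lif alone held any match, 1 for AP-1 from 228 to 222 bases before its start. The window of Osmr and both windows found for Lifr also lie inside their genes as GENCODE draws them. For Osmr and Lifr the search therefore did not cover the bases before the GENCODE start. These are matches of letters, with no measurement of binding in these data.

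Compared per transcript length, the members spanned a wide range, with Stat3 and the gp130 gene Il6st at the top and the ligands Il6, Osm and Lif at the bottom. Levels are given here in TPM, the counts divided by the summed exon length of the gene and scaled to a total of 1000000 in each library. Over the 10 libraries Stat3 averaged 66.7 ± 13.4 TPM (SD, n = 10), Il6st 63.2 ± 12.5 TPM and Socs3 33.1 ± 14.6 TPM. Stat3 lay above Il6st in 6 of 10 libraries, so by summed exon length these neighbours did not differ beyond their spread, while Il6st lay above Socs3 in all 10. Osmr averaged 17.1 ± 6.58 TPM and Lifr 8.71 ± 1.75 TPM, and Osmr lay above Lifr in 9 of 10 libraries. The exception was NLC-MI replicate 5, with 6.77 TPM of Osmr and 12.7 TPM of Lifr. Il6ra, the subunit that binds interleukin-6 itself, averaged only 4.02 ± 1.65 TPM, far below its signalling partner Il6st. Clcf1 averaged 4.49 ± 2.19 TPM, Il6 3.15 ± 1.39 TPM, Osm 2.71 ± 1.04 TPM and Lif 2.20 ± 1.17 TPM. Among Clcf1, Il6ra, Il6, Osm and Lif the ranges of all neighbours overlapped, and Clcf1 lay above Il6ra in only 3 of 10 libraries although its mean was higher. The order of the group means was identical in NLC-MI and TgGRK5-MI except that Clcf1 and Il6ra changed places. With the longest transcript as the length Osmr was at 28.7 TPM in NLC-MI, against 17.1 TPM with all exons. By that length Osmr stood above Socs3 in the mean over all 10 libraries, but not in NLC-MI, where Socs3 was at 35.4 TPM. Stat3 then lay above Il6st in every library, with means of 87.1 and 66.2 TPM in NLC-MI, so their order depends on the length used.

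**Figure D1:**
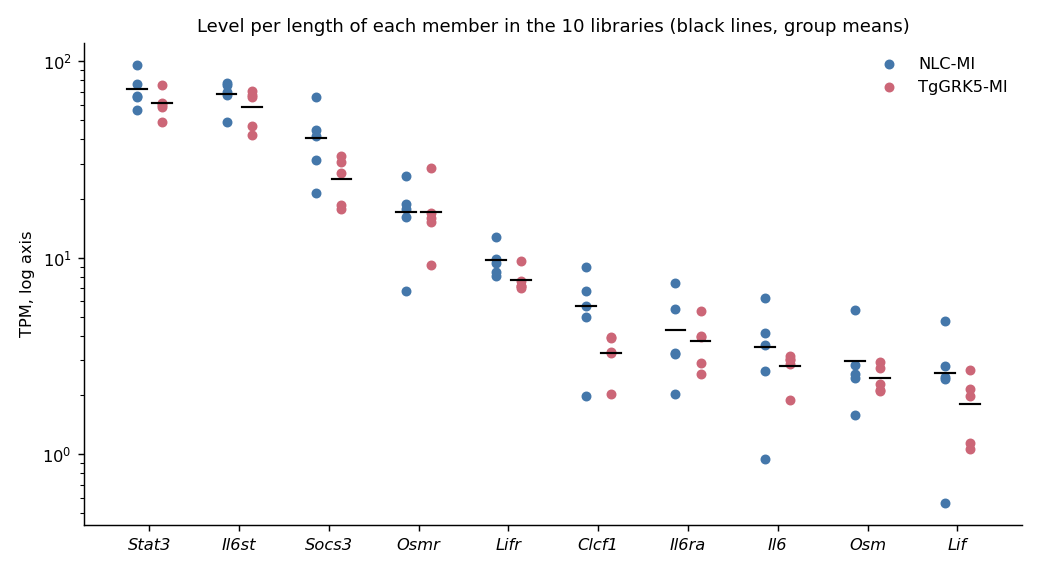
Level of each of the 10 genes per transcript length (TPM, log axis) in each library, ordered by the mean over all 10 libraries, with NLC-MI in blue, TgGRK5-MI in red and group means as black lines. Stat3 and Il6st lie highest, at 66.7 and 63.2 TPM on average, Il6, Osm and Lif lie lowest, and the points of the groups overlap for every gene.

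No member differed between TgGRK5-MI and NLC-MI at the study's threshold, an adjusted p under 0.10. With edgeR's quasi-likelihood test 0 of 10 members passed it, where 12 of all 15232 genes did (0.0788%, of which 0.0525% higher and 0.0263% lower in TgGRK5-MI). DESeq2 also called 0 members, against 0.397% of its genes (0.241% higher and 0.155% lower), and limma-voom called 0, against 0.328% (0.269% higher and 0.0591% lower). At an unadjusted p under 0.05 edgeR gave 2 members, Socs3 and Clcf1, both lower in TgGRK5-MI, against 2.08% of all genes tested in that direction, and 0 members higher against 1.77% (3.85% in both directions). DESeq2 gave the same 2 members at this threshold, where 2.97% of its genes passed (1.24% higher and 1.73% lower), and so did limma-voom, where 11.9% passed (7.48% higher and 4.41% lower). The fitted log2 fold change (TgGRK5-MI over NLC-MI) was below 0 for 9 of 10 members, with a median of -0.20, beside 49.8% of all genes tested and a median of 0.00. The members share their libraries, and NLC-MI replicate 1 was the highest library for 5 of them. Without it the log2 fold changes of Il6, Osm and Il6ra turned positive, to 0.07, 0.11 and 0.15, and 6 of 10 remained below 0. For every member the groups overlapped, where 1% of all genes tested had groups that did not.

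**Figure D2:**
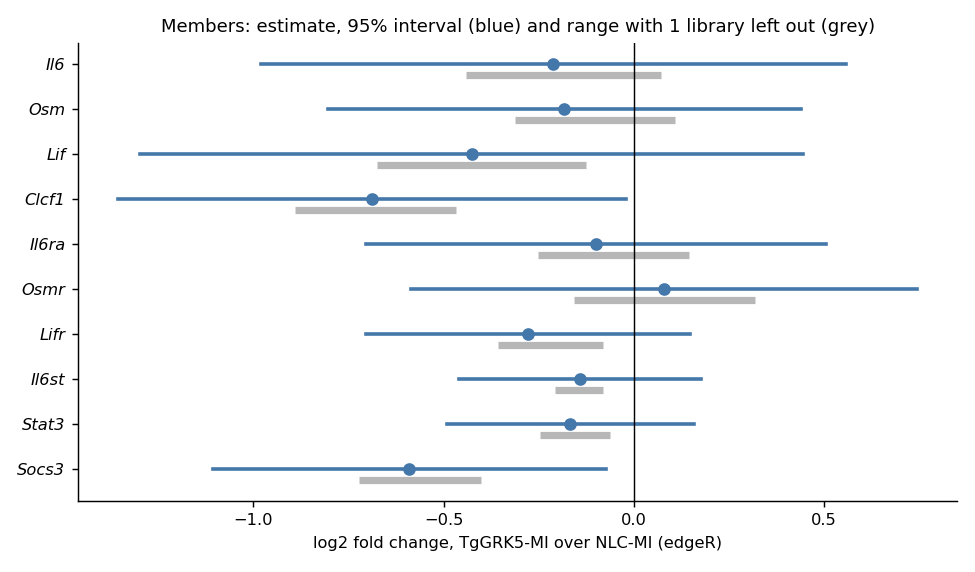
Log2 fold change of each member (TgGRK5-MI over NLC-MI, edgeR) as a point with its 95% interval in blue and, in grey, the range of the estimate when each library was left out in turn. The intervals of Clcf1 and Socs3 end just below 0, at -0.02 and -0.07, and those of the other 8 genes span 0.

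Of the members, Socs3, the feedback inhibitor, had the smallest p. Its gene (ENSMUSG00000053113) lies on chromosome 11 from 117966079 to 117970047. NLC-MI replicates 1 to 5 held 58.7, 39.5, 31.8, 38.8 and 24.6 CPM of Socs3. TgGRK5-MI replicates 1 to 5 held 31.8, 28.8, 22.3, 17.2 and 28.2 CPM. NLC-MI replicate 1 stood highest, while NLC-MI replicates 3 and 5 lay inside the range of the transgenic libraries, so the groups overlapped. Socs3 averaged 38.7 ± 12.7 CPM over the NLC-MI libraries and 25.7 ± 5.85 CPM over the transgenic ones (SD, n = 5 per group). The fitted log2 fold change was -0.59 (SE, the standard error, 0.24, 95% interval -1.11 to -0.07). The edgeR p was 0.0287 unadjusted and 1.00 adjusted over all genes, and the two-sided exact permutation test of log2 CPM gave p = 0.0635. Over the alternative fits with an adjusted p the lowest was 0.321, with limma-voom. Leaving out NLC-MI replicate 1 brought the estimate to -0.40 (edgeR unadjusted p = 0.0820), and the unadjusted edgeR p was also above 0.05 without TgGRK5-MI replicate 3 (0.0592) or 4 (0.0666). Over all libraries left out in turn it stayed between -0.72 and -0.40. In the 7 deepest libraries it was -0.45 (edgeR unadjusted p = 0.113), and with the summed fibroblast markers as a covariate -0.57 (edgeR unadjusted p = 0.0101). Socs3 had no exon bases in common with another gene.

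Stat3 (ENSMUSG00000004040, chromosome 11 from 100885098 to 100939540), whose protein induces Socs3, was among the steadiest members. It lay between 195 and 294 CPM in NLC-MI and between 186 and 243 CPM in TgGRK5-MI, with NLC-MI replicate 4 highest. The log2 fold change was -0.17 (SE 0.15, edgeR unadjusted p = 0.282), and its 95% interval allows TgGRK5-MI levels from 0.711 to 1.12 times those of NLC-MI. Stat3 and Stat5a share 72 exon bases on opposite strands, a small part of either gene. Within each library the log2 ratio of Socs3 to Stat3 was -2.61 ± 0.54 in NLC-MI and -3.02 ± 0.29 in TgGRK5-MI (SD, n = 5 each), a difference of -0.40 that was within the spread between libraries (two-sided exact permutation test, p = 0.198). Libraries thus differed in Socs3 at little varying Stat3, with ratios from -1.73 in NLC-MI replicate 1 to -3.45 in TgGRK5-MI replicate 4.

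Clcf1 (ENSMUSG00000040663, chromosome 19 from 4214238 to 4223490) encodes cardiotrophin-like cytokine factor 1, a ligand that acts through the CNTF receptor, Lifr and gp130. NLC-MI replicates 1 to 5 held 6.69, 5.82, 9.02, 11.01 and 3.01 CPM of Clcf1. TgGRK5-MI replicates 1 to 5 held 4.24, 4.84, 3.21, 4.195 and 5.42 CPM. The NLC-MI libraries other than replicate 5 all lay above the transgenic ones, and replicate 5 lay below all of them. Clcf1 averaged 7.11 ± 3.06 and 4.38 ± 0.821 CPM (SD, n = 5 per group), with a fitted log2 fold change of -0.69 (SE 0.31, 95% interval -1.36 to -0.02, edgeR unadjusted p = 0.0444, adjusted p = 1.00). The two-sided exact permutation test gave p = 0.135. The unadjusted edgeR p was above 0.05 in 7 of the 10 fits that left out 1 library, namely NLC-MI replicate 1, 3 or 4 or TgGRK5-MI replicate 1, 2, 3 or 4. It reached 0.145 without NLC-MI replicate 4, where the log2 fold change was -0.47, and was 0.00340 without NLC-MI replicate 5, where it was -0.89. It was also above 0.05 when scaled by library size alone (0.0615) and in the 7 deepest libraries (0.247). Counts ran from 37 to 235 per library, and AC109138.7, which shares 311 exon bases with Clcf1, had 0 counts.

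Il6, Osm and Lif, the other ligands, were low and most uneven in the NLC-MI group. For Il6 (ENSMUSG00000025746, chromosome 5 from 30013114 to 30019981) NLC-MI replicates 1 to 5 held 4.66, 2.67, 3.53, 2.06 and 0.915 CPM. TgGRK5-MI replicates 1 to 5 held 2.46, 2.27, 1.91, 2.58 and 2.68 CPM of Il6. All transgenic values lay inside the range of the NLC-MI values, whose highest was replicate 1 and lowest replicate 5. The log2 fold change of Il6 was -0.21 (SE 0.35, edgeR unadjusted p = 0.559), and with 14 to 106 counts per library the 95% interval reached from 0.507 to 1.47 times the NLC-MI level.

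Osm (ENSMUSG00000058755) and Lif (ENSMUSG00000034394) are neighbours on chromosome 11, at 4236420 to 4241026 and 4257557 to 4272514, and share no exon bases. Osm was at 3.83 CPM in NLC-MI replicate 1, and the other 9 libraries lay between 1.44 and 2.25 CPM. Its log2 fold change was -0.18 (SE 0.28, edgeR unadjusted p = 0.532). Lif averaged 3.65 ± 1.92 CPM over the NLC-MI libraries and 2.71 ± 0.847 CPM over the transgenic ones (SD, n = 5 per group), with a highest value of 6.38 CPM in NLC-MI replicate 1 and a lowest of 0.980 CPM in NLC-MI replicate 5. Across libraries Lif varied most of all 10 members, by 6.51 times from lowest to highest, and Il6st least, by 1.46 times. The log2 fold change of Lif was -0.43 (SE 0.40, edgeR unadjusted p = 0.306). Without NLC-MI replicate 5 it was -0.67 (edgeR unadjusted p = 0.0438), and without NLC-MI replicate 1 it was -0.12.

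**Figure D3:**
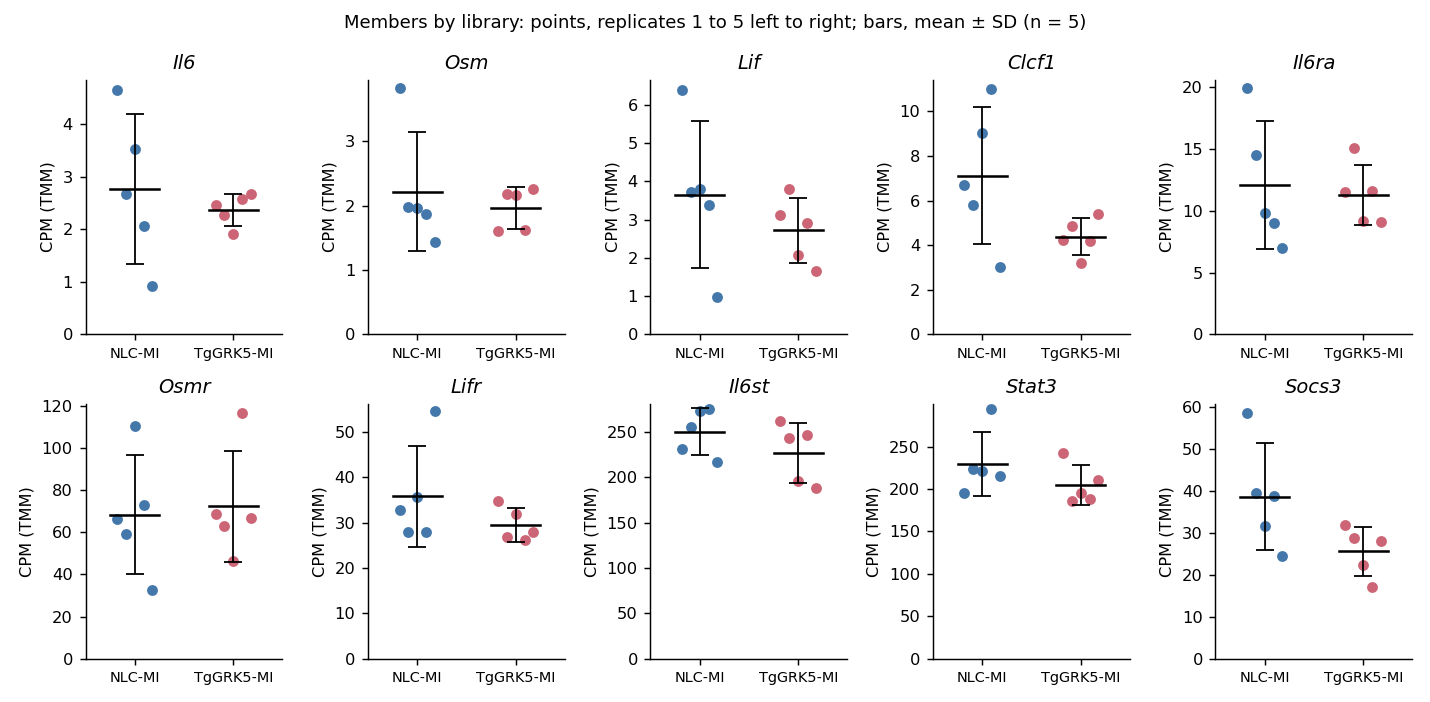
CPM of each member in each library, with replicates 1 to 5 from left to right and the mean ± SD of 5 libraries in black. NLC-MI replicate 1 is the highest library for Il6, Osm, Lif, Il6ra and Socs3, NLC-MI replicate 5 is the lowest for Il6, Osm, Lif, Clcf1, Il6ra and Osmr and the highest for Lifr, and the groups overlap in every panel.

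For none of the receptor subunits did the groups differ beyond the spread between libraries. Il6st (ENSMUSG00000021756, chromosome 13 from 112464070 to 112510086) lay between 217 and 275 CPM in NLC-MI and between 188 and 262 CPM in TgGRK5-MI, a log2 fold change of -0.14 (SE 0.15, edgeR unadjusted p = 0.353). Its interval was narrow and allows TgGRK5-MI levels from 0.727 to 1.13 times those of NLC-MI. For Osmr (ENSMUSG00000022146, chromosome 15 from 6813577 to 6874969) NLC-MI replicates 1 to 5 held 66.5, 59.3, 110.4, 73.0 and 32.7 CPM. TgGRK5-MI replicates 1 to 5 held 68.6, 62.9, 46.3, 116.6 and 67.0 CPM of Osmr. Each group thus had 1 library far above the rest, NLC-MI replicate 3 and TgGRK5-MI replicate 4, which were also the libraries with the fewest counts. The log2 fold change of Osmr was 0.08 (SE 0.30, edgeR unadjusted p = 0.797), and it turned to -0.11 without NLC-MI replicate 5 and to -0.16 without TgGRK5-MI replicate 4.

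Lifr (ENSMUSG00000054263, chromosome 15 from 7090614 to 7197489) had 54.6 CPM in NLC-MI replicate 5 and between 27.9 and 35.5 CPM in the other NLC-MI libraries. In TgGRK5-MI it lay between 26.1 and 34.7 CPM, a log2 fold change of -0.28 (SE 0.19, edgeR unadjusted p = 0.179) that shrank to -0.08 without NLC-MI replicate 5. With limma-voom, which weights libraries by quality, the log2 fold change of Lifr was -0.008 (limma-voom unadjusted p = 0.956). Osmr and Lifr are the alternative partners of gp130, and their log2 ratio was 0.88 ± 0.93 in NLC-MI and 1.23 ± 0.59 in TgGRK5-MI (SD, n = 5 each). The difference of 0.36 was within the spread between libraries (two-sided exact permutation test, p = 0.571). Il6ra (ENSMUSG00000027947, chromosome 3 from 89864059 to 89913196) lay between 6.99 and 19.9 CPM in NLC-MI and between 9.06 and 15.03 CPM in TgGRK5-MI (log2 fold change -0.10, SE 0.28, edgeR unadjusted p = 0.725). The log2 ratio of Il6ra to Il6st differed by 0.13 between the groups (two-sided exact permutation test, p = 0.659).

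Several members followed the markers of a cell type from library to library. The following correlations of log2 CPM are over 10 libraries of both groups and are a description, since members and markers share the libraries and their scaling. Each of the 10 members was set against each of the 6 sums, and those named were chosen after their values were seen. Il6ra was high where the fibroblast markers were high (Pearson r = 0.908, Spearman rho = 0.855, and r = 0.898 without the 2 libraries farthest from the median marker level). It also followed the lymphocyte markers (r = 0.857, rho = 0.830, and r = 0.774 without the 2 farthest), of which only 2 of 9 genes passed the filter on low counts. Il6ra followed the macrophage and monocyte markers too (r = 0.775, rho = 0.709, and r = 0.809 without the 2 farthest). It ran against the cardiomyocyte markers (r = -0.803, rho = -0.685, and r = -0.562 without the 2 farthest). Osmr followed the endothelial markers (r = 0.817, rho = 0.685, and r = 0.968 without the 2 farthest), and its r with the neutrophil markers, 0.841, came to 0.488 without the 2 farthest. Lifr followed the cardiomyocyte markers (r = 0.754, rho = 0.624, and r = 0.687 without the 2 farthest), whereas Il6 ran against them (r = -0.783, rho = -0.636), though only to r = -0.213 without the 2 farthest libraries. The largest r of Lifr was -0.771, with the neutrophil markers, and it came to -0.26 without the 2 farthest. Lif followed the fibroblast markers (r = 0.7175, rho = 0.661, and r = 0.739 without the 2 farthest). Il6 had r = 0.452 (rho = 0.358) with the macrophage and monocyte markers, and r = 0.901 without the 2 farthest. Over all 10 libraries Osm had correlations of like size with the macrophage and monocyte markers (r = 0.612, rho = 0.685), the lymphocyte markers (r = 0.636, rho = 0.636) and, negatively, the cardiomyocyte markers (r = -0.633, rho = -0.721). Without the 2 farthest libraries its r was 0.755 with the macrophage and monocyte, 0.582 with the lymphocyte and -0.107 with the cardiomyocyte markers. With the group means taken out, r was 0.910 for Il6ra with the fibroblast, 0.825 for Osmr with the endothelial, 0.757 for Lifr with the cardiomyocyte and 0.724 for Osm with the macrophage and monocyte markers. Other lists gave values of like size by this measure. The neutrophil markers gave 0.839 for Osmr and -0.779 for Lifr, and the lymphocyte markers 0.864 for Il6ra. Socs3 had 0.724 with the macrophage and monocyte markers. The part of these cells in the levels of the members was not tested.

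**Figure D4:**
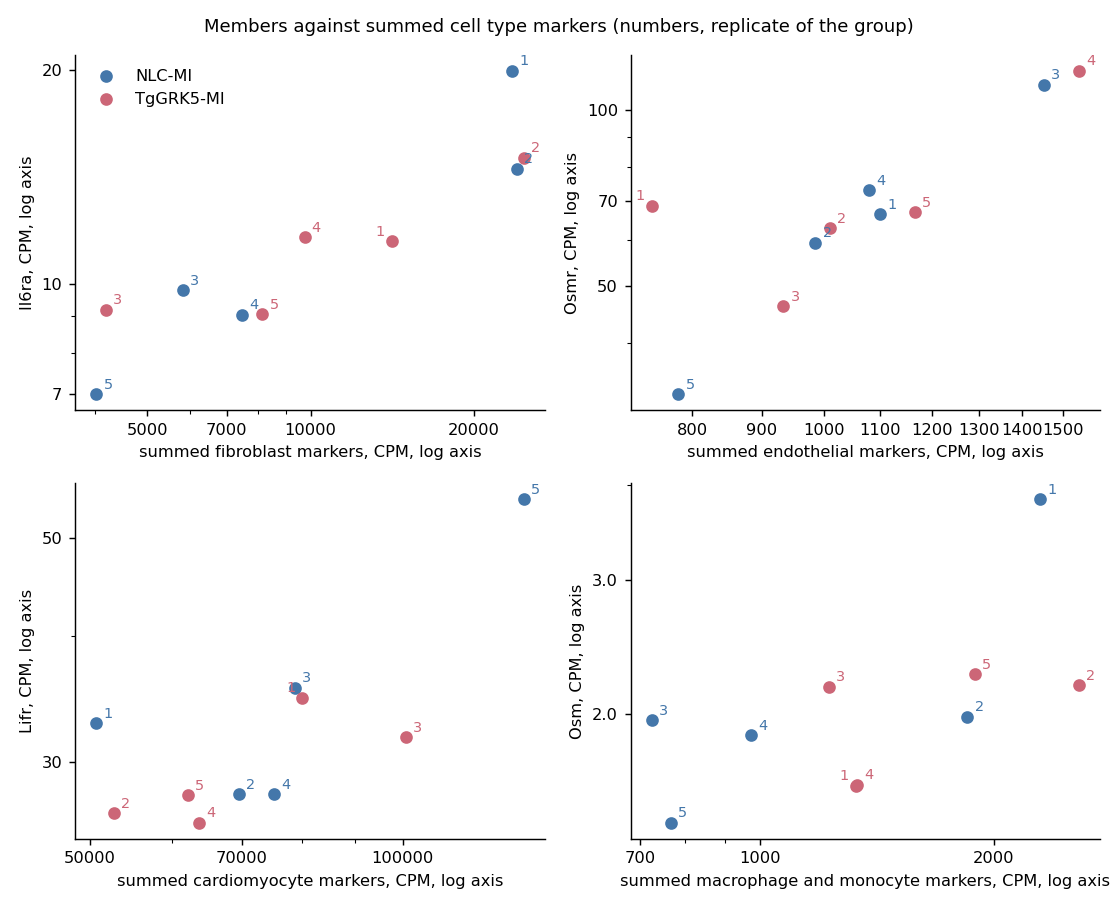
CPM of Il6ra, Osmr, Lifr and Osm (vertical, log axes) against the summed CPM of fibroblast, endothelial, cardiomyocyte, and macrophage and monocyte markers (horizontal, log axes) in the 10 libraries, numbered by replicate. Il6ra is higher in libraries with more fibroblast marker RNA (r = 0.908), and NLC-MI replicate 5 combines the most cardiomyocyte marker RNA with the highest Lifr and the lowest Osmr.

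By the same measure, the genes whose pattern over the 10 libraries was most like that of Il6 were Arntl (r = 0.941), a core circadian clock gene, Cdk17 (r = 0.927) and Baz1a (r = 0.922). For Osmr they were Mtpn (r = 0.971), Hectd2 (r = 0.969) and Shcbp1 (r = 0.967). For Socs3 they were Dcaf10 (r = 0.907), Ncs1 (r = 0.896), a calcium sensor, and Cebpd (r = 0.866), a transcription factor that is itself listed among the STAT3 targets here. Their Spearman rho ran from 0.758 (Baz1a with Il6) to 0.964 (Dcaf10 with Socs3). Each was picked as highest among all 15232 genes tested, and over 10 libraries such picking alone gives high values. A link of these genes to the members was not tested.

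The rest of the pathway also showed 0 genes at an adjusted p under 0.10 with edgeR, DESeq2 or limma-voom, among 57 of 62 listed genes that passed the filter. At an unadjusted p under 0.05 edgeR gave 2 higher and 1 lower, against 1.77% and 2.08% of all genes tested. The genes known as STAT3 targets, the longest of the lists, held all 3. The lists were chosen with earlier results of these data known, so no weight rests on this. Fgl2, a fibrinogen-like protein of immune cells, averaged 115.6 ± 33.0 CPM without and 174.4 ± 25.9 CPM with the transgene (SD, n = 5 per group, log2 fold change 0.59, edgeR unadjusted p = 0.0175, adjusted p = 1.00). Serpina3n, a protease inhibitor of the acute phase response, was at 68.5 ± 6.96 and 90.5 ± 17.0 CPM (log2 fold change 0.40, edgeR unadjusted p = 0.0210, adjusted p = 1.00). Junb, an AP-1 subunit, was at 190.0 ± 47.8 and 113.2 ± 30.0 CPM (log2 fold change -0.75, edgeR unadjusted p = 0.00436, adjusted p = 0.770), and shares 173 exon bases with Prdx2 on the opposite strand. Over all libraries Prdx2 had 57486 counts and Junb 27845, and a part of Prdx2 reads in the Junb counts was not tested. The STAT3 targets went in both directions, and their 24 tested genes had a median log2 fold change of 0.02 beside 0.00 over all genes tested. Reg3b, an oncostatin M target of injured cardiomyocytes, had 1 count in all libraries together.

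Among the other ligands, 5 of 8 were tested and 0 had an unadjusted p under 0.05 with edgeR. Il11, a gp130 ligand known from cardiac fibrosis, had the largest change of them, at 0.779 ± 0.427 CPM without and 0.493 ± 0.181 CPM with the transgene (log2 fold change -0.56, SE 0.46), with 2 to 20 counts per library. Of the other receptor subunits, 3 of 4 were tested, led by Cntfr (log2 fold change 0.25, SE 0.40) and Il11ra1 (-0.20, SE 0.32), and again 0 had an unadjusted p under 0.05. These receptors bind ciliary neurotrophic factor and interleukin-11.

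All 10 JAK kinases and other STATs were tested, with 0 at an unadjusted p under 0.05 in edgeR and a median log2 fold change of -0.11. The largest were Stat5a (-0.39, SE 0.19, edgeR unadjusted p = 0.0673) and Stat5b (-0.31, SE 0.17, edgeR unadjusted p = 0.0873), which carry signals of growth hormone and many cytokines. Jak1, a kinase that binds gp130, lay between 172.1 and 187.9 CPM in NLC-MI and between 137.0 and 172.0 CPM in TgGRK5-MI, so its groups did not overlap, as for 1% of all genes tested. Its log2 fold change was -0.16 (SE 0.12, edgeR unadjusted p = 0.200, adjusted p = 1.00). The two-sided exact permutation test gave 0.00794, not adjusted. This is the smallest p possible, which groups without overlap always get, so it adds nothing to the lack of overlap. Jak1 was the only one of the 62 listed genes without overlap. All 15 other inhibitors were tested, with 0 at an unadjusted p under 0.05 and a median of -0.11. Socs1, the closest relative of Socs3 in function, averaged 1.94 ± 1.00 CPM without and 1.15 ± 0.855 CPM with the transgene (SD, n = 5 per group, log2 fold change -0.68, SE 0.50, edgeR unadjusted p = 0.199). Ptpn6, a phosphatase mostly of blood cells, was at 21.1 ± 7.23 and 27.2 ± 6.57 CPM (log2 fold change 0.36, SE 0.25).

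**Figure D5:**
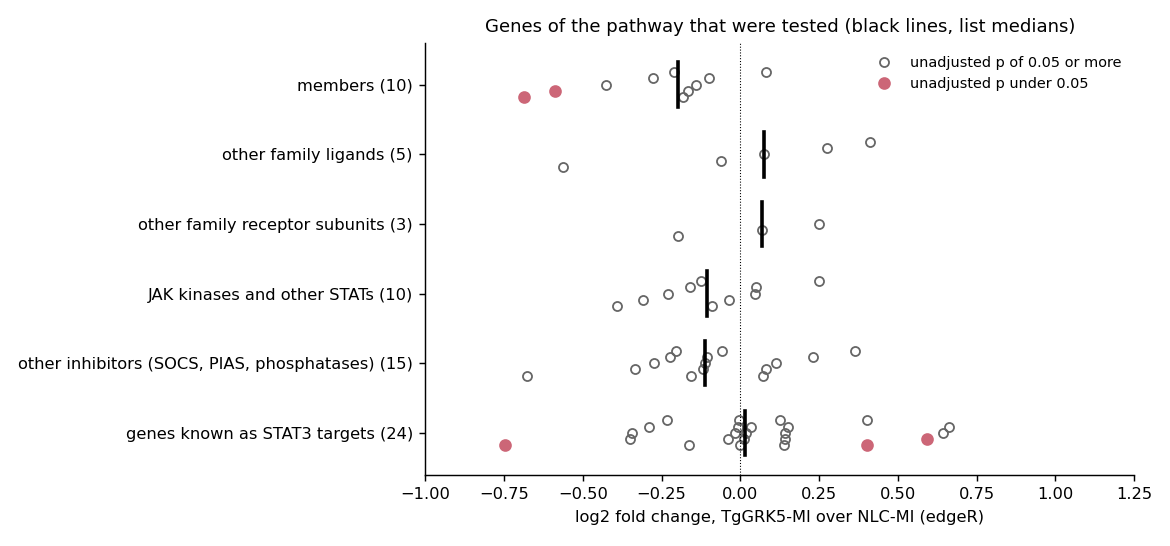
Log2 fold change (TgGRK5-MI over NLC-MI, edgeR) of every tested gene of the 10 members and the 5 pathway lists, with the number of tested genes in brackets, list medians as black lines and genes with an unadjusted p under 0.05 filled in red. The filled genes are Clcf1 and Socs3 among the members and Junb, Serpina3n and Fgl2 among the STAT3 targets.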

How the data were processed

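RNA of isolated cardiomyocytes was sequenced in 10 libraries. The authors deposited whole-number counts per Ensembl gene, not normalized. The submitters' processing notes name Bowtie2, RSEM 1.2.31, DESeq2 and mm10 without their roles, so whether the counts are rounded RSEM estimates, the strand setting and the annotation version are not given in the sources used here. Libraries were grouped, and replicate numbers read, from the sample titles. Symbols, positions and exon lengths came from GENCODE M21 (GRCm38), which held 51596 of the 51789 identifiers, and promoter windows from RefSeq (GRCm38.p6).

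Counts were analysed in R 4.3.3 with edgeR 4.0.16 (TMM, filterByExpr by group, quasi-likelihood F test without robust fitting and with the legacy option off, Benjamini-Hochberg over 15232 genes). Thresholds were an adjusted p under 0.10 and an unadjusted p under 0.05. CPM used the TMM factors, and log2 CPM a prior count of 2. Single values were tested with the two-sided exact permutation test over 5 and 5 libraries, whose smallest p is 0.00794. Intervals are at 95%, from the standard error and degrees of freedom of the edgeR fit. Alternatives used DESeq2 1.42.0, limma 3.58.1 (voom with quality weights), other scalings and filters, the replicate number as a block, and libraries left out. A covariate of fibroblast markers and a fit of the 7 deepest libraries were chosen after the data were seen. Scripts were tested on simulated data. The members and lists were chosen with earlier results of these data known. Named were all members, genes of the pathway lists with an unadjusted p under 0.05 or else the 2 with the largest change per list, and for Il6, Osmr and Socs3 the 3 genes with the highest Pearson correlation. Reg3b, Jak1, Ly6g, Camp and the marker correlations named were chosen after their values were seen. For the other ligands, 1 gene that the rule names is not reported here.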

Additional observations from a re-analysis of the deposited data

Results flagged for a closer look

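The log2 ratio of Osmr to Lifr in NLC-MI replicate 5 was -0.735, while the 4 others of its group lay from 1.02 to 1.63. Its gap to the nearest library was 0.740 of the range of the group, above Dixon's 95% limit for 5 libraries. This library held the most cardiomyocyte marker RNA, 130773 CPM. Without it the difference between the groups in this ratio was -0.05 (two-sided exact permutation test, p = 0.881). The log2 ratio of Il6ra to Il6st in TgGRK5-MI replicate 2 was -4.008, against -4.50 to -4.36 in the other TgGRK5-MI libraries, a gap of 0.716 of the range. That library held the most fibroblast marker RNA, 24731 CPM. Chance alone passes this limit in about 1 of 20 groups, and 38 groups of values were examined. The part of these cells in either ratio was not tested.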

How the results depend on the processing

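Of 190 refits of the 10 members, 185 kept their direction, 5 changed sign, all with 1 library left out, and 0 reached an adjusted p under 0.10 in edgeR, DESeq2 or limma-voom. With each library left out, the log2 fold change ran from -0.44 to 0.072 for Il6, -0.31 to 0.11 for Osm, -0.25 to 0.15 for Il6ra and -0.16 to 0.32 for Osmr, and the difference in the log2 ratio of Osmr to Lifr from -0.047 to 0.55. Differences in summed markers ran from -0.29 to 0.051 (cardiomyocyte), -0.28 to 0.37 (fibroblast), -0.068 to 0.29 (neutrophil), 0.27 to 0.68 (macrophage and monocyte), -0.15 to 0.11 (endothelial) and -0.10 to 0.26 (lymphocyte). The 2 members lower at an unadjusted p under 0.05 became 0 to 3: 0 without NLC-MI replicate 1, TgGRK5-MI replicate 3 or TgGRK5-MI replicate 4, 1 without NLC-MI replicate 3 or 4 or TgGRK5-MI replicate 1 or 2, and 3 without NLC-MI replicate 5. They were 1 with library size alone and 0 in the 7 deepest libraries. Of the pathway lists, 2 to 5 genes had an unadjusted p under 0.05 with 1 library left out, against 3, and 6 of 57 with limma-voom, under which 11.9% of all genes tested passed. Osmr in NLC-MI was at 28.7 TPM with the longest transcript.

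Over all genes, 8 were higher at an adjusted p under 0.10, against 13 with library size alone, 42 with DESeq2, 41 with limma-voom, 4 with at least 10 counts in every library, 13 with no filter, 19 with the fibroblast covariate, 5 in the 7 deepest libraries and 2 to 7 with 1 library left out. Lower were 4, against 27 with DESeq2, 9 with limma-voom, 9 with the fibroblast covariate, 1 in the 7 deepest and 1 to 3 with 1 left out. At an unadjusted p under 0.05, 269 were higher, against 1139 with limma-voom, 516 with no filter, 574 with the covariate and 176 to 591 with 1 left out, and 317 were lower, against 493 with DESeq2, 671 with limma-voom, 647 with no filter and 265 to 536 with 1 left out. The causes were not tested. The groups share replicate numbers, but no clear pairing by number was seen. Same-numbered deviations correlated at -0.341 to 0.662, with a mean of 0.172 beside -0.027 for different numbers. Only replicate 2 correlated best with its own number. With 5 pairs this check cannot show that pairing is absent. With the replicate number as a block 5 genes were higher and 3 lower at an adjusted p under 0.10, 1 member was lower at an unadjusted p under 0.05 (Socs3, edgeR unadjusted p = 0.0244; Clcf1, 0.121), and the 3 ratios gave exact sign-flip p of 0.625, 0.188 and 0.688, where 0.0625 is the smallest possible. Il6, Osm and Lif had as few as 14 counts in a library, which limits their precision.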
